A study of Mus musculus with 16 samples.

Results

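The genes described here code for 10 secreted antimicrobial proteins of the gut epithelium: Lypd8, Reg4, Retnlb, Mptx1, Reg3b, Reg3g, Ang4, Itln1, Lcn2 and Pla2g2a. They were chosen by symbol from a table of 24091 genes, and all 10 had a row in it. Expression was measured in epithelial cells of the caecum of C57BL/6 mice, in 9 RNA libraries that fell into 3 groups of 3. The vehicle was the sweetener Splenda at 10 g/L; the treatment protocol can be read to give it to all 3 groups, but whether the ampicillin was dissolved in Splenda water is not stated. In the ampicillin with tributyrin group, mice drank ampicillin, an antibiotic that kills many gut bacteria, at 1 g/L for 7 days and received tributyrin, an ester of glycerol and butyrate, by gavage 6 h before harvest. In the ampicillin with mock gavage group, mice drank the same ampicillin and received 25% glycerol. In the vehicle group, mice drank Splenda without ampicillin and received the same mock gavage. The series concerns butyrylation of histones and the microbiota. Whether each library came from its own mouse is not in the labels, so a p-value measures the spread between these libraries, which may be technical.

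The epithelium of the large intestine releases lectins, ribonucleases and other proteins that bind or kill bacteria and keep them away from the cell surface. Reg3b and Reg3g, C-type lectins, are known to be induced by gut bacteria through Toll-like receptor signalling and interleukin-22, and are made most strongly in the small intestine. Goblet cells, the mucus-making cells, release Retnlb, while Ang4 is known from Paneth cells of the small intestine and from goblet cells. Lypd8 is attached to the membrane of colonic enterocytes by a lipid anchor and is shed into the lumen, where it binds bacterial flagella, so it is secreted only in that sense.

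Reg3b and Reg3g lie in 1 cluster on mouse chromosome 6, and their windows around the start of transcription are shown first because they were the most alike of those compared. Windows of 300 bases, 250 before the start and 50 after it, were taken from RefSeq on the build GRCm38.p6, which shares its coordinates with mm10, and 8 of the 10 genes had one. Ang4 is shown because, with Reg3b and Reg3g, it stood high in 1 vehicle library, and Mptx1 and Reg4 because they were even among the vehicle libraries. The positions are chr6:78370635-78370934 on the plus strand for Reg3b, chr6:78468825-78469124 on the minus strand for Reg3g and chr14:51773541-51773840 on the minus strand for Ang4. Mptx1 was read from chr1:174330268-174330567 and Reg4 from chr3:98221906-98222205, both on the plus strand. Each sequence runs 5′ to 3′, and capitals mark matches to the motifs named after them.
Reg3b: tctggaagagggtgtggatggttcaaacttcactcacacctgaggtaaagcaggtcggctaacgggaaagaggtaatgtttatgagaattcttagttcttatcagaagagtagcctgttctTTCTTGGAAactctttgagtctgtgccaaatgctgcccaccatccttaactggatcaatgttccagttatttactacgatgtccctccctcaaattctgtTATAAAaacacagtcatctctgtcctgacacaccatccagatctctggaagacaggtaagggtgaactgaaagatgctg
Reg3g: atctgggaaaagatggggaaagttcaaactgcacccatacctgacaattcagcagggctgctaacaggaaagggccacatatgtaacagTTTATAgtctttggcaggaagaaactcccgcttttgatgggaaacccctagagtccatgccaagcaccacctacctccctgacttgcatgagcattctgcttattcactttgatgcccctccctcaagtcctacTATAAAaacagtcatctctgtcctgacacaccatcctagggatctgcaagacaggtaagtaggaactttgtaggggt
Ang4: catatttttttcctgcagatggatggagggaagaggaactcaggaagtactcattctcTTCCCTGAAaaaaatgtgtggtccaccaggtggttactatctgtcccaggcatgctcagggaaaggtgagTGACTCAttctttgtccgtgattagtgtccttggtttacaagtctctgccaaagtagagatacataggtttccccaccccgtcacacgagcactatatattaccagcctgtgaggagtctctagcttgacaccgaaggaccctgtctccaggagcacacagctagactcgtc
Mptx1: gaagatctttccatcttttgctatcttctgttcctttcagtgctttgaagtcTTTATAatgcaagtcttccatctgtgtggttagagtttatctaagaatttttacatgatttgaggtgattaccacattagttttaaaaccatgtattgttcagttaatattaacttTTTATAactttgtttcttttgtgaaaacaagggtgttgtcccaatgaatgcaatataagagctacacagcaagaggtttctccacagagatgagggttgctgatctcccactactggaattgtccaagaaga
Reg4: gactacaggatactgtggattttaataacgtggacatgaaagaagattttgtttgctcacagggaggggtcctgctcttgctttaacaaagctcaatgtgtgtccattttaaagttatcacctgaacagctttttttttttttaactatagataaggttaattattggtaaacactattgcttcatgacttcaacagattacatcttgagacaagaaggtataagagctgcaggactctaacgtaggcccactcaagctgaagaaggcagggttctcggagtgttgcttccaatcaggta

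The aligned windows of Reg3b and Reg3g were identical at 214 of 310 columns, or 69.0%, and the next pair, Ang4 and Itln1, reached 53.3%. Reg3b and Reg3g shared an unbroken run of 29 bases that began at position -20 in both. The motifs searched on both strands were TTCNNNGAA, read by STAT factors, TGANTCA, read by AP-1, a motif of NF-kB, and the TATA box TATAAA. No match of 1 motif overlapped a match of another in the sequences shown. TTCNNNGAA was found in Reg3b, at position -129 from the start, and in Ang4, at position -192, and 8.30% of all 32851 RefSeq windows of this length hold it. TGANTCA was found in Ang4, at position -122, against 7.81% of all windows. TATAAA was found in Reg3b, Reg3g and Mptx1, 3 of the 8 genes, against 13.6% of all windows. It lay at position -29 in Reg3b and at positions -27 and, on the other strand, -161 in Reg3g. In Mptx1 it lay only on the other strand, at positions -198 and -82. The NF-kB motif, held by 0.411% of all windows, was not found in the 8 genes' windows, and the window of Reg4 held none of the 4 motifs. A match is a run of letters and not a measured binding site.

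Values are TPM, the usual length-corrected unit of transcript abundance, which scales each library to 1 total, so levels can be set side by side between genes but the sequencing depth is unknown. The libraries held 17242 to 17722 genes above 0. Of the 10 genes, 8 passed a filter of a mean TPM of at least 1 over the 9 libraries, and Lcn2 and Pla2g2a did not. Reg3b and Itln1 passed through the vehicle group alone, with ampicillin groups averaging under 1 TPM, so counts over the 8 are a description and support nothing by themselves. Differences are given in log2(TPM + 1) with the SE from limma, a linear model fitted to 12155 genes, and the call rule was an adjusted p under 0.05 by Benjamini and Hochberg's method. The log2(TPM + 1) scale understates the change of low genes.

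Vehicle replicate 2 stood furthest apart, and replicate 3 lay between replicates 1 and 2 for many of the same small intestinal and Paneth cell markers. Of 21 markers of small intestinal enterocytes, 17 were highest in replicate 2 of the 3 vehicle libraries, as were 15 of 20 markers of Paneth cells and deep crypt secretory cells and 4 of 17 goblet cell markers. So were 10 of 15 detected colonocyte markers and 6 of 9 general epithelial markers. Median ratios of replicate 2 to replicate 1 were 2.40 for small intestinal and 1.52 for Paneth or deep crypt markers. They were 1.04 for colonocyte, 1.03 for general epithelial and 0.945 for goblet markers. These ratios cover markers with at least 0.1 TPM in each vehicle library and 1 TPM in 1 of them. Summed small intestinal markers came to 1757 to 1789 TPM with ampicillin and tributyrin and 1764 to 1981 TPM with ampicillin and mock gavage. In vehicle replicates 1, 2 and 3 the sums were 1848, 2554 and 1796 TPM. Fabp2 made up most of each vehicle sum, at 1657, 1857 and 1515 TPM, so the sums hardly reflect the rarer markers. Among the 10 antimicrobial genes, Reg3b in vehicle replicate 2 was 9.10 times the mean of the other two vehicle libraries, Reg3g 8.45 times, Ang4 3.05 times and Itln1 2.94 times. Lypd8 at 1.1 times, Reg4 at 1.01, Retnlb at 0.913 and Mptx1 at 0.880 were even across the vehicle libraries. The genes thus fell into 2 sets in the vehicle group, and the differences of the 8 tested genes from vehicle are given with and without replicate 2. Without it, replicates 1 and 3 still differed, with Fabp6 at 12.3 and 53.4 TPM and Apoa1 at 2.30 and 9.19 TPM. Leaving out replicate 2 therefore does not remove all of this spread.

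**Figure D1:**
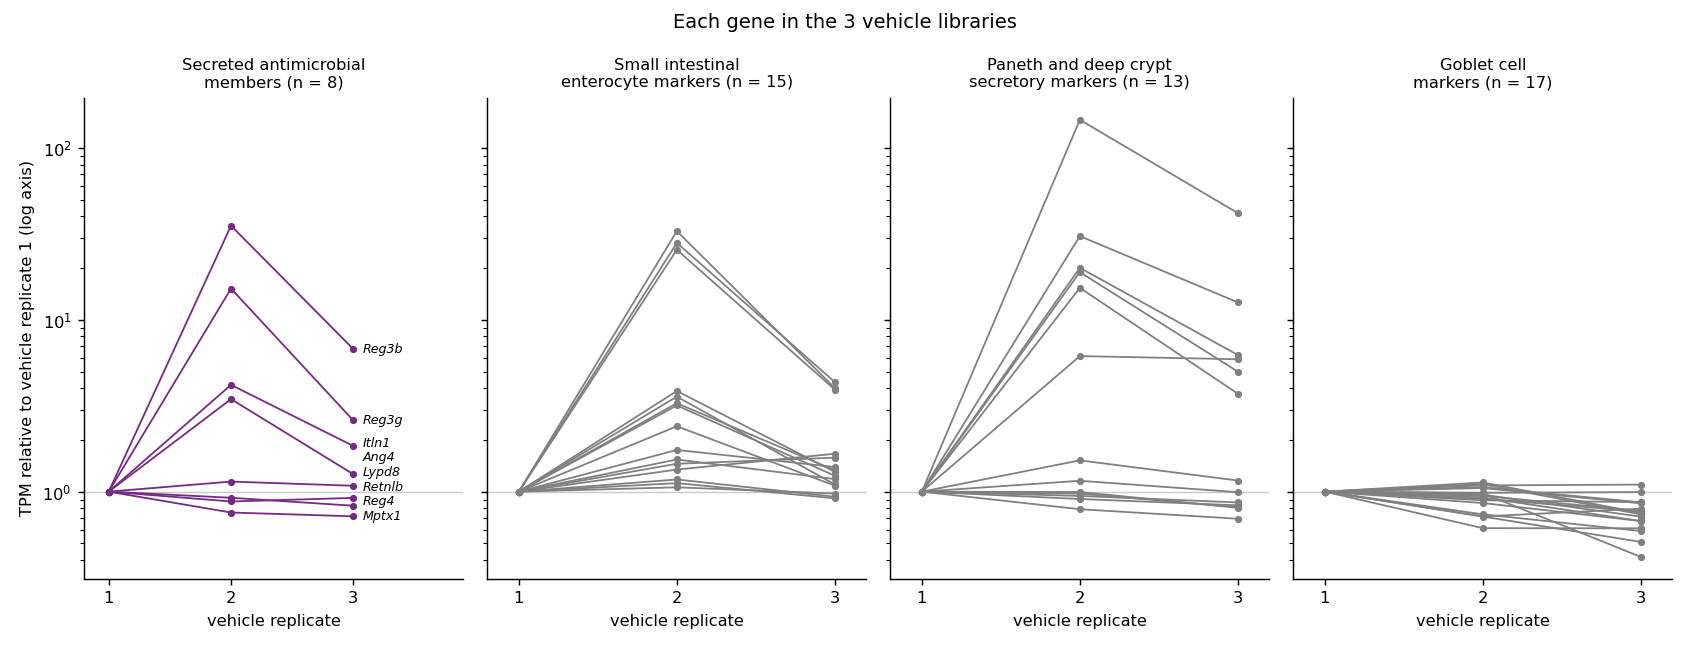
TPM of each gene in the 3 vehicle libraries, relative to vehicle replicate 1 on a log axis, for 8 antimicrobial genes and for markers of small intestinal enterocytes (15), Paneth or deep crypt secretory cells (13) and goblet cells (17) with at least 0.1 TPM in each vehicle library and 1 TPM in 1 of them; each line is a gene. Reg3b, Reg3g, Itln1 and Ang4 peak in replicate 2 and lie higher in replicate 3 than in replicate 1, while Reg4, Retnlb and Mptx1 do not.

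The order of the levels was steep. Lypd8 ranked 12 of 24091 genes with ampicillin and tributyrin, 11 with ampicillin and mock gavage and 12 in vehicle, by mean TPM. Reg4 ranked 116 with ampicillin and tributyrin, 124 with ampicillin and mock gavage and 29 in vehicle. Retnlb ranked 1264 with ampicillin and tributyrin, 1274 with ampicillin and mock gavage and 411 in vehicle. The 10 genes together took 0.546% to 0.666% of all TPM with ampicillin and tributyrin, 0.577% to 0.637% with ampicillin and mock gavage, and 0.789% to 0.867% in vehicle. Reg4 and Lypd8 made up between 92.5% and 98.1% of that sum in each library.

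Ampicillin was set against vehicle first, both with mock gavage, which asks how the antibiotic changed the epithelium. Reg4, Retnlb and Mptx1, which were even among the vehicle libraries, fell with ampicillin by 1.09, 1.67 and 1.90 on the log2(TPM + 1) scale, and Reg3b and Reg3g fell to under 2 TPM in each ampicillin library. Lypd8, the most abundant of the 10, did not pass the test. Of the 8 tested genes, 7 were called lower, where 10.2% of all genes tested were called lower and 21.3% in either direction. The same 7 had no overlap between ampicillin and vehicle libraries, and 18.2% of all genes tested lay lower without overlap. The median log2 fold change of the 8 was -1.60, and that of all genes tested 0.02. Without vehicle replicate 2, 6 of the 8 were called lower, with a median of -1.40. The count was 4 without vehicle replicate 3, ampicillin with mock gavage replicate 1 or ampicillin with mock gavage replicate 3. In RNA from a mixture of cell types, fewer cells of a type and less RNA per cell cannot be told apart.

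**Figure D2:**
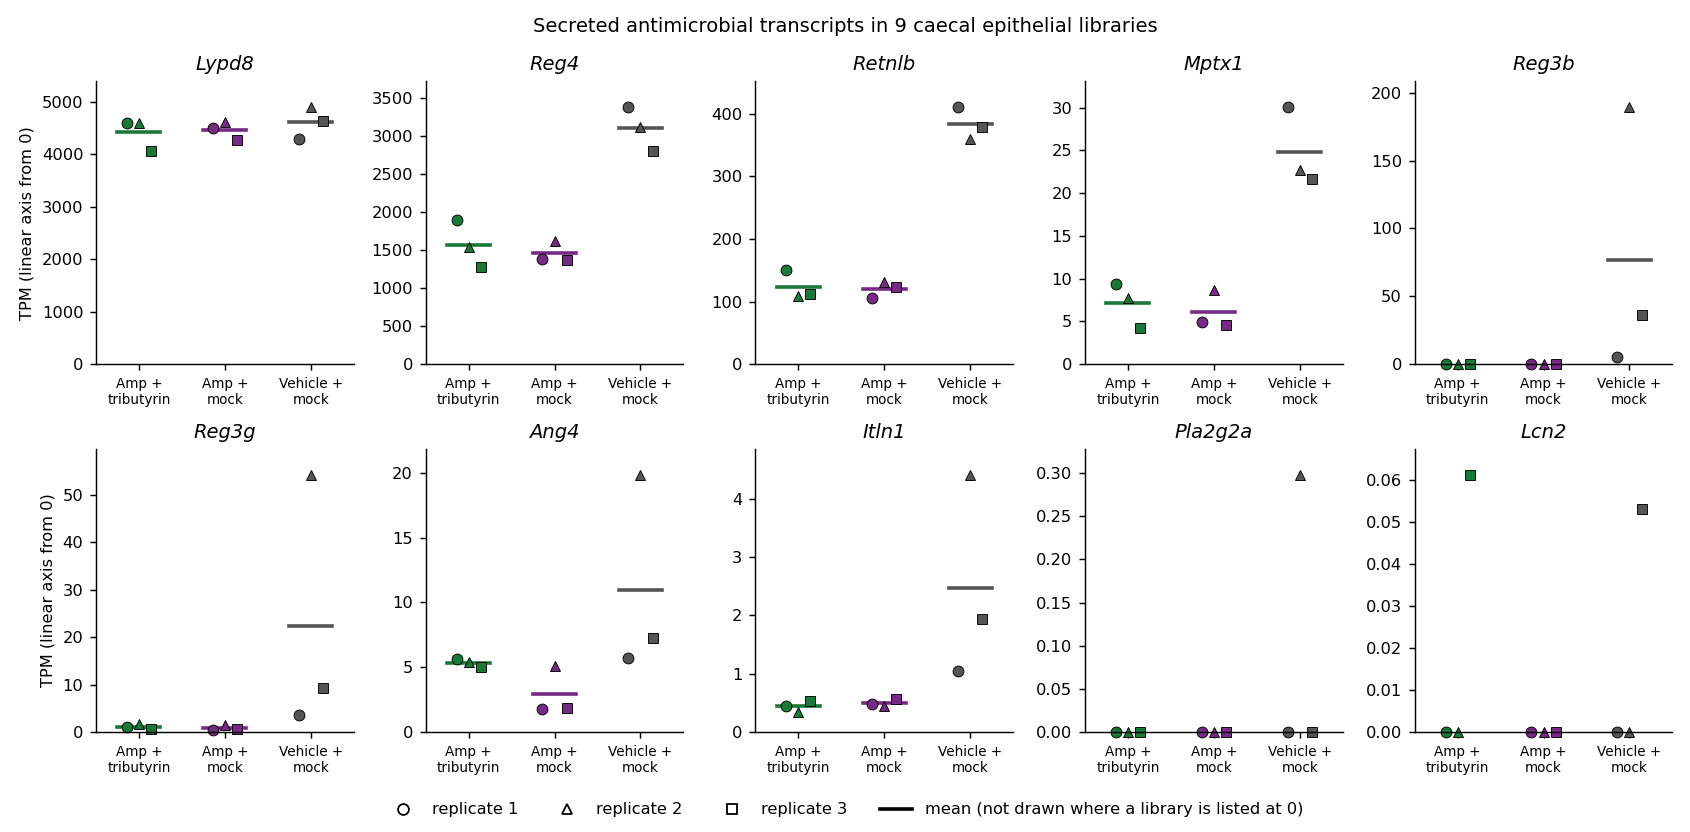
TPM of each of the 10 genes in each library, with the groups from left to right as ampicillin with tributyrin, ampicillin with mock gavage and vehicle. Each symbol is a library and each bar the group mean, which is not drawn where a library of the group is listed at 0. Axes are linear and start at 0. Reg4, Retnlb and Mptx1 are lower in all 6 ampicillin libraries than in the 3 vehicle libraries, Lypd8 is level, and the vehicle mean of Reg3b and Reg3g is pulled up by replicate 2.

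Reg4, a C-type lectin of the secretory cells of the colon, had 1896, 1536 and 1281 TPM with ampicillin and tributyrin, 1376, 1614 and 1375 TPM with ampicillin and mock gavage, and 3380, 3113 and 2799 TPM in vehicle. The vehicle libraries lay above all 6 ampicillin libraries, and the 2 ampicillin groups overlapped. With ampicillin and mock gavage it averaged 1455 ± 138 TPM, against 3098 ± 291 TPM in vehicle (SD, n = 3 each), a log2 fold change of -1.09 ± 0.14 at a limma adjusted p of 0.00104. Without vehicle replicate 2 the log2 fold change was -1.08. St6gal1, a sialyltransferase, and Copz2 had the profiles most like Reg4 over the 9 libraries, with a mean absolute difference in centred log2(TPM + 1) of 0.085 and 0.088. Reg4 spans chr3:98222138-98236748 (gene ID 67709).

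Retnlb, resistin-like beta, a goblet cell protein that kills bacteria, had 150.2, 108 and 111 TPM with ampicillin and tributyrin, 106, 131 and 123 TPM with ampicillin and mock gavage, and 410.9, 360.1 and 378 TPM in vehicle. Its vehicle libraries lay well above the others, again without overlap. It averaged 120 ± 13.1 TPM with ampicillin and mock gavage and 383 ± 25.8 TPM in vehicle (SD, n = 3 each), a log2 fold change of -1.67 ± 0.13 at a limma adjusted p of 8.85e-05, and -1.71 without vehicle replicate 2. Its nearest profiles were Adamts15, a metalloprotease, at 0.149 and Ttll9 at 0.156. Retnlb spans chr16:48816856-48818892 (gene ID 57263).

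Mptx1, mucosal pentraxin, of the protein family of C-reactive protein, had 9.39, 7.72 and 4.20 TPM with ampicillin and tributyrin, 4.95, 8.63 and 4.63 TPM with ampicillin and mock gavage, and 30.1, 22.8 and 21.6 TPM in vehicle. The lowest vehicle library stood above the highest ampicillin library. It averaged 6.07 ± 2.23 TPM with ampicillin and mock gavage and 24.8 ± 4.60 TPM in vehicle (SD, n = 3 each), a log2 fold change of -1.90 ± 0.29 at a limma adjusted p of 0.00219, and -1.95 without vehicle replicate 2. The profile nearest to Mptx1 was that of Retnlb, at 0.243, followed by Gsdmc4, a gasdermin, at 0.255. Mptx1 spans chr1:174330518-174332877 (gene ID 66289). Reg4, Retnlb and Mptx1 stayed called in both comparisons with vehicle under all 20 alternatives tried. Reg3b did as well, but it passed the filter through the vehicle group alone, so its calls support nothing by themselves.

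Lypd8 had 4596, 4597 and 4058 TPM with ampicillin and tributyrin, 4503, 4611 and 4264 TPM with ampicillin and mock gavage, and 4288, 4906 and 4640 TPM in vehicle. All 3 groups overlapped. It averaged 4459 ± 177 TPM with ampicillin and mock gavage and 4611 ± 310.1 TPM in vehicle (SD, n = 3 each), and its log2 fold change of -0.047 ± 0.072 had a 95% interval of -0.21 to 0.12 and a limma adjusted p of 0.704. Without vehicle replicate 2 it was -0.0011 ± 0.076. Its share of the summed TPM of the 10 genes was 69.0% to 74.3% with ampicillin and tributyrin, 72.4% to 75.2% with ampicillin and mock gavage and 52.8% to 58.8% in vehicle. The ratio of Reg4 to Lypd8 within a library, which does not depend on how libraries are scaled, was 0.413, 0.334 and 0.316 with ampicillin and tributyrin, 0.305, 0.350 and 0.322 with ampicillin and mock gavage, and 0.788, 0.635 and 0.603 in vehicle. The lowest vehicle ratio was thus above all 6 ampicillin ratios. Lypd8 spans chr11:58379032-58390541 (gene ID 70163).

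Reg3b, which binds Gram-negative bacteria, was listed at 0, 0.0559 and 0 TPM with ampicillin and tributyrin, at 0, 0.355 and 0.0552 TPM with ampicillin and mock gavage, and at 5.38, 189.6 and 36.3 TPM in vehicle replicates 1, 2 and 3. The ampicillin libraries were all under 1 TPM, and the vehicle libraries differed widely among themselves. The log2 fold change, ampicillin with mock gavage minus vehicle, was -4.98 ± 0.98 at a limma adjusted p of 0.00785. It was -3.78 ± 0.62 (adjusted p of 0.00576) without vehicle replicate 2 and -6.23 without vehicle replicate 1, so its size depended on the vehicle library left out while its call did not. Over the 9 libraries its nearest profiles were Fabp6, the ileal bile acid-binding protein, at 0.582, and Apoa1, the apolipoprotein of chylomicrons and high-density lipoprotein, at 0.805. Fabp6 had 4.46, 3.94 and 1.84 TPM with ampicillin and tributyrin, 3.63, 2.22 and 3.24 TPM with ampicillin and mock gavage, and 12.3, 344.7 and 53.4 TPM in vehicle replicates 1, 2 and 3. Fabp6 and Reg3b ordered the vehicle libraries alike, with replicate 2 highest and replicate 1 lowest. Fabp6 was picked for its likeness to Reg3b over these same libraries, so the shared order is no separate support. The part of the small intestinal transcripts in the difference of Reg3b was not tested.

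Reg3g, which binds the peptidoglycan of Gram-positive bacteria, had 1.18, 1.63 and 0.704 TPM with ampicillin and tributyrin, 0.435, 1.52 and 0.697 TPM with ampicillin and mock gavage, and 3.57, 54.3 and 9.28 TPM in vehicle replicates 1, 2 and 3. As with Reg3b, no ampicillin library reached the lowest vehicle library, and replicate 2 was the highest. Its log2 fold change, ampicillin with mock gavage minus vehicle, was -2.91 ± 0.76 at a limma adjusted p of 0.0267. It was -1.91 ± 0.38 (adjusted p of 0.0128) without vehicle replicate 2 and -3.70 without vehicle replicate 1. The call was lost when vehicle replicate 3 (adjusted p of 0.0526), ampicillin with mock gavage replicate 1 (0.0812), replicate 2 (0.0549) or replicate 3 (0.0771) was left out. Its nearest profiles were Apoa1 at 0.303 and Defa30, a defensin of Paneth cells, at 0.324. Reg3b and Reg3g are close paralogs that can share reads, so the division of TPM between them is uncertain.

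Reg3b spans chr6:78370885-78373466 (gene ID 18489) and Reg3g chr6:78466269-78468874 (gene ID 19695), 92803 bases apart. Between them lie Reg3d, Reg3a, Reg2 and Reg1 of the same family. Reg3a was listed at 0 in all 6 ampicillin libraries and at 0.123, 2.48 and 0.381 TPM in vehicle replicates 1, 2 and 3, again highest in replicate 2. Reg1, best known from the pancreas, was at most 0.312 TPM, in vehicle replicate 2. Reg2 was listed at 0 in all 9 libraries, and Reg3d was above 0 in 1 ampicillin with tributyrin library, at 0.0722 TPM. Of 14 markers of pancreatic acinar cells, 4 were at 0 in all libraries, the enzymes Amy2a5, Cela3b, Cpa1 and Pnlip, and 1, not called in any comparison, passed the filter. Summed, the list came to 78.1 to 89.3 TPM with ampicillin and tributyrin and 77.3 to 81.4 TPM with ampicillin and mock gavage. In vehicle the sum was 86.0 to 89.0 TPM. Most of each sum came from the 1 marker that passed, as the others averaged under 1 TPM each.

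Ang4, a ribonuclease that kills bacteria, had 5.63, 5.37 and 5.05 TPM with ampicillin and tributyrin, 1.76, 5.12 and 1.89 TPM with ampicillin and mock gavage, and 5.75, 19.8 and 7.26 TPM in vehicle replicates 1, 2 and 3. Vehicle replicate 2 stood high, and ampicillin with mock gavage replicate 2 lay among the tributyrin libraries. The log2 fold change, ampicillin with mock gavage minus vehicle, was -1.52 ± 0.43 at a limma adjusted p of 0.0371. It was -1.03 ± 0.32 without vehicle replicate 2, and the call was lost, at an adjusted p of 0.0625. The call was also lost without vehicle replicate 3 (0.057), ampicillin with mock gavage replicate 1 (0.115) or 3 (0.118), and ampicillin with tributyrin replicate 1 (0.0574), 2 (0.0567) or 3 (0.0549). Naaladl1, at 0.244, and Osr2, at 0.285, had the nearest profiles. Ang4 spans chr14:51763892-51773590 (gene ID 219033) and belongs to a family of similar ribonucleases that can share reads.

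Itln1, intelectin 1, a lectin that binds sugars of microbes, had 0.449, 0.353 and 0.540 TPM with ampicillin and tributyrin, 0.477, 0.448 and 0.570 TPM with ampicillin and mock gavage, and 1.05, 4.41 and 1.94 TPM in vehicle replicates 1, 2 and 3. The ampicillin libraries lay below 1 TPM and below the vehicle libraries. The log2 fold change, ampicillin with mock gavage minus vehicle, was -1.09 ± 0.30 at a limma adjusted p of 0.0311, and -0.72 ± 0.17 (adjusted p of 0.0272) without vehicle replicate 2. The call was lost without vehicle replicate 3 (0.0658) or ampicillin with mock gavage replicate 1 (0.081), 2 (0.0882) or 3 (0.0746). Maf, a transcription factor, at 0.164 and Pdlim2 at 0.176 had the nearest profiles. Itln1 spans chr1:171518123-171535325 (gene ID 16429).

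Lcn2, which withholds iron from bacteria by binding their siderophores, was listed at 0, 0 and 0.0612 TPM with ampicillin and tributyrin, at 0 in all libraries with ampicillin and mock gavage, and at 0, 0 and 0.053 TPM in vehicle. It is at or near 0 in all groups and was not tested. Neutrophils also carry Lcn2, and 3 of 18 markers of neutrophils and myeloid cells, Mpo, Retnlg and S100a8, were at 0 in all 9 libraries. Their summed level was 30.7 to 41.9 TPM with ampicillin and tributyrin, 35.1 to 41.9 TPM with ampicillin and mock gavage and 66.1 to 77.3 TPM in vehicle. Pla2g2a, a secreted phospholipase that breaks bacterial membranes, was listed at 0 in all libraries except vehicle replicate 2, at 0.298 TPM, the library with the most small intestinal transcripts. C57BL/6 mice carry an inactive form of this gene, and RefSeq lists it as a transcribed pseudogene, so its row does not measure an active secreted protein. Lcn2 spans chr2:32384637-32387739 (gene ID 16819) and Pla2g2a chr4:138831857-138835189 (gene ID 18780).

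Tributyrin was set against mock gavage next, both with ampicillin, which asks whether butyrate given by gavage changed the epithelium. None of the 8 tested genes was called by limma, and in the fit over all 9 libraries none had an unadjusted p under 0.05, the lowest being 0.1, for Ang4. Over all genes tested 23.2% were called, and 42.6% had libraries that did not overlap, while each of the 8 overlapped. The median log2 fold change was 0.06 for the 8 and 0.05 for all genes tested. The intervals of the difference set the size that could have been missed.

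Reg4 averaged 1571 ± 309 TPM with tributyrin and 1455 ± 138 TPM with mock gavage (SD, n = 3 each), a log2 fold change of 0.10 with a 95% interval of -0.22 to 0.42. Retnlb averaged 123 ± 23.3 TPM with tributyrin and 120 ± 13.1 TPM with mock gavage (SD, n = 3 each), a log2 fold change of 0.03 with an interval of -0.27 to 0.33. For these secretory cell genes the intervals exclude a doubling or a halving. Lypd8, at 4417 ± 311 TPM with tributyrin and 4459 ± 177 TPM with mock gavage (SD, n = 3 each), had the narrowest interval of the 8, from -0.18 to 0.15.

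Mptx1 averaged 7.10 ± 2.65 TPM with tributyrin and 6.07 ± 2.23 TPM with mock gavage (SD, n = 3 each), and its interval ran from -0.47 to 0.84. Ang4 averaged 5.35 ± 0.288 TPM with tributyrin and 2.92 ± 1.90 TPM with mock gavage (SD, n = 3 each), a log2 fold change of 0.80 ± 0.43 with an interval of -0.19 to 1.78 and a limma adjusted p of 0.214. Its tributyrin libraries lay close together, while the mock gavage library at 5.12 TPM kept the groups from separating. Reg3g had a log2 fold change of 0.22 with an interval of -1.50 to 1.95, and Reg3b, near 0 in all 6 libraries, -0.15 ± 0.98. These errors take in the spread of the vehicle libraries, and with the tributyrin and mock gavage libraries alone the SE was 0.25 for Reg3g and 0.13 for Reg3b, with neither called by limma (adjusted p of 0.562 and 0.465). For Ang4 the SE was 0.307 with those 2 groups alone (limma adjusted p of 0.116). It was 0.285 without vehicle replicate 2 (0.0805), and Ang4 was not called in either fit.

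**Figure D3:**
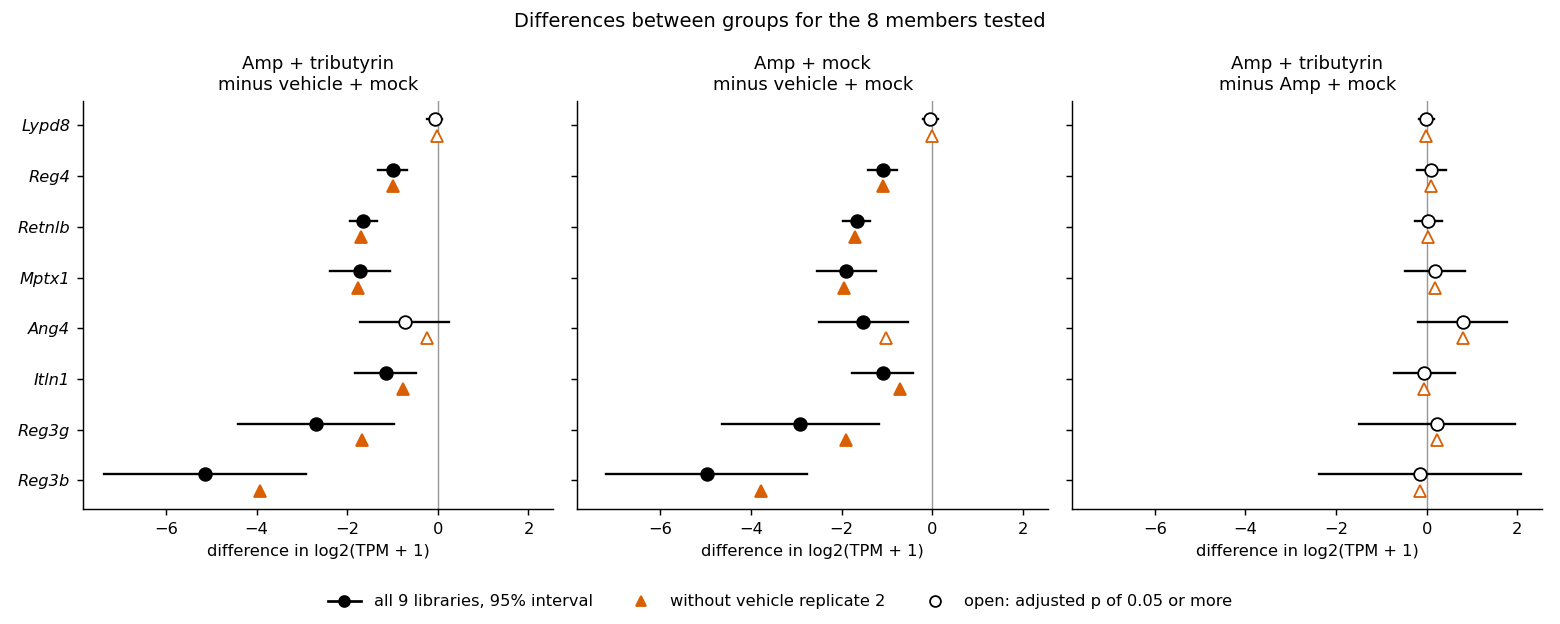
Difference in log2(TPM + 1) for the 8 tested genes, first group minus second, as limma estimates with 95% intervals over all 9 libraries (circles) and without vehicle replicate 2 (triangles), filled where the adjusted p was under 0.05. Against vehicle, leaving out replicate 2 brings Reg3b, Reg3g, Ang4 and Itln1 nearer to 0 and hardly moves Reg4, Retnlb, Mptx1 and Lypd8; between tributyrin and mock gavage no symbol is filled.

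Ampicillin with tributyrin was set against vehicle last, and this comparison shares its vehicle libraries with the first. Reg4, Retnlb, Mptx1, Reg3b, Reg3g and Itln1 were called lower, 6 of the 8 tested, where 9.21% of all genes tested were called lower and 28.3% in either direction. All of the 8 except Lypd8, 7 in number, lay below the vehicle libraries without overlap, against 13.2% of all genes tested. The median was -1.39 for the 8 and 0.08 for all genes tested, and without vehicle replicate 2 the same count of 6 was called lower. Retnlb had a log2 fold change of -1.64 ± 0.13 (adjusted p of 0.000161), Mptx1 -1.72 ± 0.29 (0.00372) and Reg4 -0.99 ± 0.14 (0.00181) in limma. Without vehicle replicate 2, Retnlb had -1.68, Mptx1 -1.77 and Reg4 -0.99, all called. Reg3b had -5.13 ± 0.98 (0.00643), and -3.92 without vehicle replicate 2 or -6.37 without vehicle replicate 1. Reg3g had -2.69 ± 0.76 (0.0304), and -1.68 without vehicle replicate 2 or -3.48 without vehicle replicate 1. The call of Reg3g was lost without vehicle replicate 3 (0.0566) or tributyrin replicate 1 (0.0745), 2 (0.0679) or 3 (0.0721). Itln1 had -1.15 ± 0.30 (0.0222), and -0.77 ± 0.17 (0.0193) without vehicle replicate 2, with the call lost without tributyrin replicate 1 (0.0569) or 2 (0.069). Ang4 had -0.73 ± 0.43 (0.237) and was not called, nor was it without vehicle replicate 2, at -0.23 ± 0.32 (0.621), or without vehicle replicate 1, at -1.05 ± 0.45 (0.139). Lypd8 had -0.062 ± 0.072 with a 95% interval of -0.23 to 0.10, and -0.017 ± 0.076 without vehicle replicate 2.

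Other antimicrobial genes of the epithelium were called in both directions. Of 36 in the table, 15 were tested, and with ampicillin and mock gavage 6 were called higher and 3 lower than in vehicle, with a median log2 fold change of 0.28 against 0.02 for all genes tested. Among all genes tested, 21.3% were called in either direction and 10.2% lower. Saa3, a serum amyloid A protein, had 193, 254 and 285 TPM with ampicillin and mock gavage, against 27.4, 26.4 and 31.6 TPM in vehicle, a log2 fold change of 3.04 ± 0.17 (limma adjusted p of 1.87e-05). Saa1 at 1.09 ± 0.17 and Sprr2a3, a small proline-rich protein, at 0.72 ± 0.10 also rose, as did Ang, Rnase4 and Sprr2a1. Wfdc2, a protease inhibitor of mucosal secretions, fell to 17.5, 26.1 and 16.9 TPM with ampicillin and mock gavage, against 129.8, 97.2 and 107 TPM in vehicle, a log2 fold change of -2.43 ± 0.16 (3.82e-05). Pglyrp1, a peptidoglycan recognition protein, and Pigr, the receptor that carries IgA into the lumen, were the other two called lower. Without vehicle replicate 2 the counts were 6 higher and 2 lower, as Pglyrp1 lost its call. Genes of the Saa family and of the Sprr2a family are similar in sequence, to differing degrees, and can share reads, so the division of reads within each family is uncertain.

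With tributyrin, Wfdc2 had 42.2, 40.5 and 41.2 TPM, all above the 3 mock gavage libraries, a log2 fold change of 1.02 ± 0.16 (limma adjusted p of 0.00349). Pigr rose as well, by 0.20 ± 0.06 (0.0427), and Sprr2a1 fell by 0.47 (0.00437) and Sprr2a3 by 0.36 (0.0344) on the log2(TPM + 1) scale. Pigr was not called without vehicle replicate 2 (0.0536), which left 1 higher and 2 lower of the 15 in place of 2 and 2. Over all genes tested 23.2% were called in this comparison. Against vehicle, ampicillin with tributyrin had 5 of the 15 higher and 1 lower. The shares of all genes tested there were 28.3% called in either direction and 9.21% called lower.

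**Figure D4:**
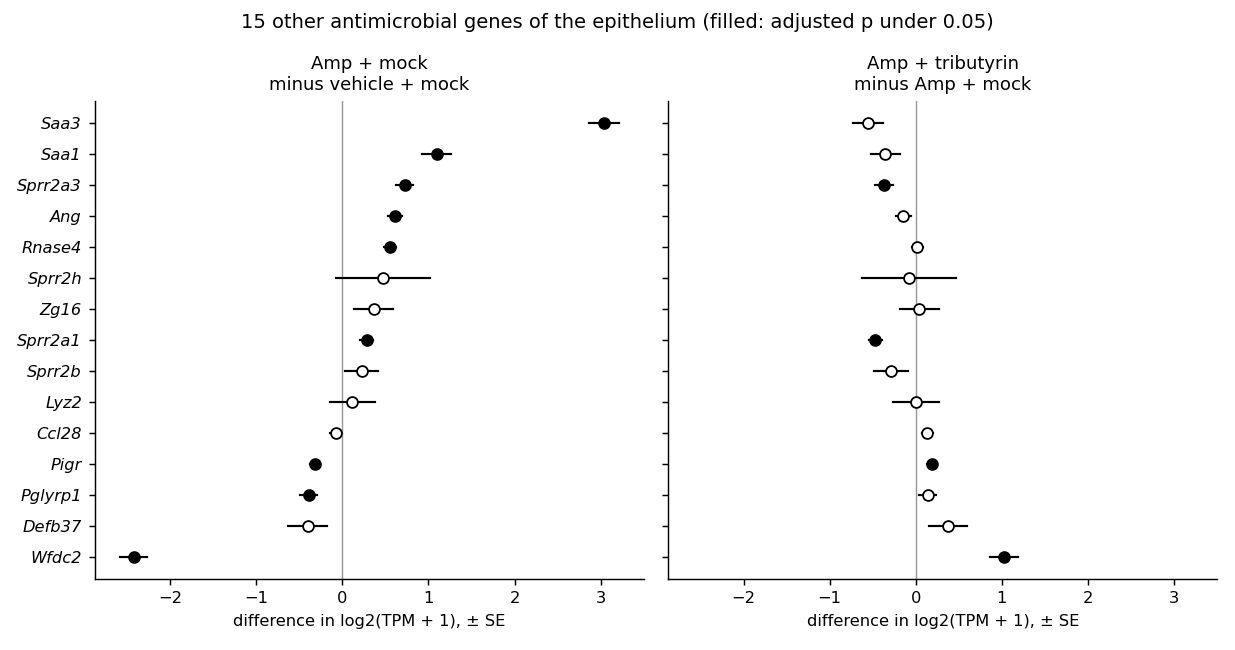
Difference in log2(TPM + 1), first group minus second, with the SE from limma, for the 15 other antimicrobial genes tested; filled circles have an adjusted p under 0.05. Saa3 and Wfdc2 lie at the ends with ampicillin against vehicle, at 3.04 and -2.43, and Wfdc2 is the gene furthest to the right with tributyrin against mock gavage, at 1.02.

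Receptors, sensors and transcription factors that induce antimicrobial genes were tested as a list as well. Of 33 such genes, 23 were tested, and with ampicillin and mock gavage 4 were called higher and 3 lower than in vehicle, with a median of -0.09, and 4 and 4 without vehicle replicate 2. Over all genes tested 21.3% were called in this comparison and 23.2% with tributyrin against mock gavage, so the counts of 7 and 4 of 23 are no result about the list. Socs3, a feedback inhibitor that STAT3 induces, rose by 0.78 ± 0.12, and Il17rc, a subunit of the interleukin-17 receptor, rose by 0.47 ± 0.07 in log2(TPM + 1). Tlr2, a receptor for bacterial lipoproteins, fell by 0.53, and Nfkbia, the inhibitor of NF-kB, fell by 0.43. With tributyrin against mock gavage 2 were higher, Cebpb and Stat6, and 2 lower, Il10rb and Il17rc, and ampicillin with tributyrin had 4 higher and 4 lower than vehicle. The share of all genes tested that were called against vehicle there was 28.3%, so these counts are no result about the list either.

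Cell type markers are given beside the 10 genes as measured values. Of 17 goblet cell markers, 5 were lower with ampicillin and mock gavage than in vehicle and none higher, with a median of -0.11, and again 5 were lower without vehicle replicate 2. Among all genes tested, 10.2% were called lower in this comparison. Muc2, the main mucin of the colon, had a log2 fold change of -0.83 ± 0.19 (limma adjusted p of 0.0155), against -1.67 for Retnlb, and Creb3l1, Klk1 and Spink4 were lower too. Summed goblet markers were 10800 to 12241 TPM with ampicillin and tributyrin, 9702 to 10911 TPM with ampicillin and mock gavage and 10916 to 14015 TPM in vehicle. The vehicle libraries thus lay above those with ampicillin and mock gavage, by a narrow margin at the nearest pair, and the tributyrin libraries overlapped with both groups. With tributyrin 1 goblet marker was higher and 1 lower than with mock gavage, and ampicillin with tributyrin had none higher and 6 lower than vehicle, or 3 lower without vehicle replicate 2. The shares of all genes tested were 23.2% called with tributyrin against mock gavage, and 9.21% called lower for ampicillin with tributyrin against vehicle.

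Of 20 Paneth and deep crypt secretory markers, 13 were tested, and 4 defensin genes, Defa30, Defa20, Defa22 and Defa21, were lower with ampicillin and mock gavage than in vehicle. Defa30, Defa22 and Defa21 were listed at 0 in all 6 ampicillin libraries and passed the filter through the vehicle group alone. They could therefore only be called lower, and their calls support nothing by themselves. Defa30 had 0.931, 18.7 and 5.81 TPM in vehicle replicates 1, 2 and 3. Summed, the list came to 284 to 306 TPM with ampicillin and tributyrin, 262 to 297 TPM with ampicillin and mock gavage, and 284, 415 and 304 TPM in vehicle. Without vehicle replicate 2, 3 of the 13 were called lower. With all libraries, 10.2% of all genes tested were called lower in this comparison. Tributyrin against mock gavage had 1 higher and 1 lower, and ampicillin with tributyrin 4 lower than vehicle. Over all genes tested the shares were 23.2% called in the former and 9.21% called lower in the latter. Defensin genes are near-identical and share reads.

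Among 12 tested small intestinal enterocyte markers, 4 were higher and 4 lower with ampicillin and mock gavage than in vehicle, the lower ones being Fabp6, Apoa1, Anpep and Alpi, and without vehicle replicate 2 the counts were again 4 and 4. Apoa1 was under 1 TPM in all 6 ampicillin libraries and passed the filter through the vehicle group alone. Of all genes tested, 21.3% were called in this comparison in either direction and 10.2% lower. None of these markers was called between tributyrin and mock gavage, and 2 were higher and 3 lower with ampicillin and tributyrin than in vehicle. The shares of all genes tested called in either direction were 23.2% and 28.3% in these comparisons. All 9 general epithelial markers were detected, summing to 12177 to 13131 TPM with ampicillin and tributyrin, 11058 to 11536 TPM with ampicillin and mock gavage and 13401 to 14867 TPM in vehicle. These groups did not overlap, and 6 of the 9 markers were lower with ampicillin and mock gavage than in vehicle, also without vehicle replicate 2. Of 15 tested colonocyte markers, 5 were higher and 4 lower, and of 5 tested neutrophil and myeloid markers none was higher and 2, C1qa and Cd14, were lower; both counts were as large without vehicle replicate 2. None of 10 tested T lymphoid markers was called with ampicillin and mock gavage against vehicle, 3 were higher with tributyrin than with mock gavage, and no B cell or plasma cell marker passed the filter. The part of these cell types in the differences of the 10 genes was not tested.

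Over all genes tested, tributyrin against mock gavage gave 1902 genes higher and 917 lower. After rescaling by TMM factors the split was 1522 and 1483, and after quantile normalization 1466 and 1647. Ampicillin with tributyrin against vehicle gave 2325 higher and 1119 lower, which became 1566 and 1745 with TMM factors and 1683 and 1663 with quantile normalization. The directions of Reg4, Retnlb, Mptx1, Reg3b, Reg3g and Itln1 against vehicle held under each of these scalings.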

How the data were processed

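Groups and replicate numbers of the 9 RNA libraries, 3 per group, were read from the titles. The series' other 7 samples, chromatin immunoprecipitations and an input, were not used here. TPM was deposited by the authors for each gene in each library. The submitters' processing notes name Salmon 0.8.2, DESeq2 1.20.0 and mm10, without a role or an order. Which annotation, filters and strand setting were applied is not stated there, so reads of overlapping antisense genes may be mixed. TPM keeps no depth, and each library summed to between 999833 and 999866; precision is therefore the spread among the 3 libraries of each group.

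Gene IDs were matched to RefSeq on GRCm38.p6 (24045 of 24091). Genes with a mean TPM of at least 1 were tested, which kept 12155 and left out 11936. Values were taken as log2(TPM + 1). The fit was made with limma 3.58.1 under R 4.3.3, with a mean for each group over all 9 libraries, a variance trend, 6 residual degrees of freedom and no replicate term. P-values are two-sided with Benjamini-Hochberg adjustment over all genes tested. With 3 libraries against 3, exact permutation reaches no p below 0.1. The fit was tested on simulated data. The alternatives were other pseudocounts and filters, other scalings, robust variances, array weights, a replicate term, the 2 groups alone, and each library left out. Python 3.11.15 with matplotlib 3.10.9 drew the figures.

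The text names all 10 genes, up to 4 called genes of each other list by size of change, with further called ones named only to complete a count, and for each called gene of the 10 the 2 tested genes with the nearest profile. The genes of the Reg cluster and those at 0 in a marker list were named after their values were seen. The 10 genes and the lists of other antimicrobial genes, inducers and cell type markers were chosen with earlier results of these data known.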

Additional observations from a re-analysis of the deposited data

How the results depend on the processing

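The count of antimicrobial genes called lower with ampicillin and mock gavage than in vehicle, 7, was 4 with a pseudocount of 5 and 4 with the 2 groups alone, and ran from 4 to 7 when 1 library was left out, with 4 without vehicle replicate 3 or ampicillin with mock gavage replicate 1 or 3. Reg3g, Ang4 and Itln1 were the genes that lost their call. With ampicillin and tributyrin against vehicle, the count of 6 ran from 4 to 6. Itln1 has no value under the filter of a mean TPM of 5, which leaves it out.

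None of the reversed values belonged to a called gene. Lypd8 against vehicle was 0.033 after quantile normalization. Between tributyrin and mock gavage, Reg3g was -0.0098 after quantile normalization, Retnlb -0.026 with TMM factors and Lypd8 0.0049 with array weights. When 1 library was left out, Retnlb ran from -0.12 to 0.11, Reg4 from -0.049 to 0.23, Mptx1 from -0.026 to 0.47 and Lypd8 from -0.047 to 0.044. The cause was not tested.

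Over all genes, tributyrin against mock gavage called 2819, 4271 with array weights, and 1587 to 3011 with 1 library left out (1756 and 1681 without mock gavage replicate 1 and 2, 1587 without tributyrin replicate 2). Ampicillin with tributyrin against vehicle called 3444, and 2093 to 3786, lowest without tributyrin replicate 2.

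With the replicate number as a block, 7, 0 and 6 of the antimicrobial genes were called in the 3 comparisons, and 2707, 3009 and 3569 genes in all. Deviations of same-numbered libraries correlated between -0.0498 and 0.108 over 9 pairs, and not every library correlated best with its own number, so the numbers were not taken to pair the libraries.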
